A study of Rattus norvegicus with 18 samples.

Results

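Fatty acid oxidation, ketogenesis and butyrate use were followed in rat colon as a module of 37 genes, measured by microarray in healthy colon and on days 2, 5, 7 and 14 after a colitis-inducing enema. The genes were chosen by name for their roles in the pathway. Each gene was represented by the probe set that carries only its symbol, and by the brightest one over the 18 arrays where it had several. Of the 37 genes, 35 were measured, among 14217 genes with such a probe set, and 11 of the 35 had more than 1 probe set. Slc5a8, the sodium-coupled carrier of butyrate, and Acaa1a, the peroxisomal thiolase, were not analysed here.

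Cells burn fatty acids by first coupling them to coenzyme A, then carrying long chains into mitochondria on carnitine, and then removing acetyl units in a repeating cycle of dehydrogenation, hydration, dehydrogenation and cleavage. Butyrate, which colonic bacteria make from fibre, is a main fuel of the cells lining the colon. It enters through the monocarboxylate transporter encoded by Slc16a1, among other carriers, and is oxidized by the short- and medium-chain enzymes of the same cycle. Nuclear receptors of the PPAR family and the coactivator encoded by Ppargc1a promote transcription of many of these genes.

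The 6 control rats were healthy and received a saline enema. Colitis was induced by 1 enema of 10 mg trinitrobenzenesulfonic acid (TNBS), a hapten that attacks the colon wall, dissolved in 50% ethanol. Colons were taken from 3 rats on each of days 2, 5, 7 and 14. The study picked those 12 rats by inflammatory markers, and no group received ethanol alone, so the effects of TNBS and of its vehicle cannot be told apart. RNA came from full-thickness colon, that is, mucosa and muscle wall together, and in such tissue fewer cells of a type and less RNA per cell cannot be told apart. The sources used here give no strain, sex or age of the rats. Every rat is 1 array of its own, and the p-values below measure the spread between those arrays.

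The deposited values are logarithms of a base that the sources used here do not give, and they were treated as log2. The median over all probe sets was 4.27 to 4.3 on the control arrays and 5.03 to 5.08 on the TNBS arrays, and the median gene therefore differed from control by 0.62, 0.59, 0.56 and 0.62 on days 2, 5, 7 and 14 as deposited. Extraction is also labelled differently in controls and TNBS rats, so that this shift, the extraction and the disease cannot be told apart. Differences from control were therefore tested after quantile normalization of the 18 arrays, where the median gene differed by -0.008, -0.022, -0.059 and -0.017. Quantile normalization removes the shift, but for any single gene extraction and disease still cannot be told apart. In what follows, "rose" and "fell" mean a limma adjusted p under 0.05 on that scale, and the deposited value stands beside it where it is weaker or turns the direction. For the members, the deposited difference was higher than the quantile-normalized one by 0.32 (Slc16a1, mean level 10.25) to 0.89 (Ehhadh, mean level 5.47). The median of this offset was 0.54, and it was smaller for the brightest members. Of the 35 members, 33 were above the median brightness, so the medians and shares of all genes, on either scale, are not matched to them in brightness. Differences between TNBS days do not involve the level of the controls and used the deposited values. Their tests still draw on the spread within all groups, controls included.

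After quantile normalization, many enzymes of the module fell in the inflamed colon and most were not called on day 14, while a pair of carnitine-shuttle genes rose on every day. Of the 35 members, 9 fell and 2 rose at day 2, 12 fell and 3 rose at day 5, 14 fell and 3 rose at day 7, and 1 fell and 2 rose at day 14. Among all 14217 genes, 10.7% fell and 11.4% rose on day 2, 16.5% fell and 14.7% rose on day 5, 18.7% fell and 14.7% rose on day 7, and 6.37% fell and 6.4% rose on day 14. The members' share that fell was thus 25.7% on day 2, 34.3% on day 5 and 40.0% on day 7, above the share of all genes, and 2.86% on day 14, below it. The shares of all genes are not matched in brightness to the members, of which 33 were above the median, and a matched share was not tested. The median member differed from control by -0.33, -0.55, -0.50 and -0.050 on the 4 days. Acadm, Acads, Acsl3, Echs1, Ppargc1a and Slc16a1 fell on days 2, 5 and 7, and Cpt2 and Slc25a20 rose on all 4 days. All 4 comparisons share the same 6 control arrays, so a gene that repeats its direction over the days does not do so independently.

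The balance of rises and falls depended on the scale, and the number of falls also on single arrays. As deposited, 10, 7, 9 and 17 of the 35 members were called higher on days 2, 5, 7 and 14. Of all genes, 79.2%, 76.7%, 75.6% and 84.1% were called higher, shares that are not matched to the members in brightness. Called lower were 2, 3, 5 and 0 members, and the median member differed by 0.066, -0.010, 0.024 and 0.47. Of the falls, 2 of 9 on day 2 and 3 of 12 on day 5 were also called lower as deposited. On days 7 and 14 these were 5 of 14 and 0 of 1. Among the falls of all genes, 103 of 1522, 204 of 2349, 217 of 2660 and 25 of 905 were on the 4 days. Of all genes, 0.724%, 1.43%, 1.53% and 0.176% were called lower on both scales, beside 2, 3, 5 and 0 of 35 members, again not matched in brightness. The members called on both scales were Acadm and Slc16a1 on days 2, 5 and 7, Hadh on day 5, and Acads, Acsl5 and Ppargc1a on day 7. As deposited, Acsl1 and Echs1 on day 2 and Acsl3 on day 5 had the opposite sign. Without day 2 replicate 2 or 3, 2 or 3 members were called lower on day 2, and without replicate 1, on which the means of the members and of the macrophage and neutrophil markers lay nearest to control, 11 were. Day 5 gave 6 members lower without its replicate 2 and 19 without its replicate 1, and day 7 gave 10 without its replicate 1. All genes were not counted in these fits, so whether such swings are particular to the members was not tested.

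**Figure D1:**
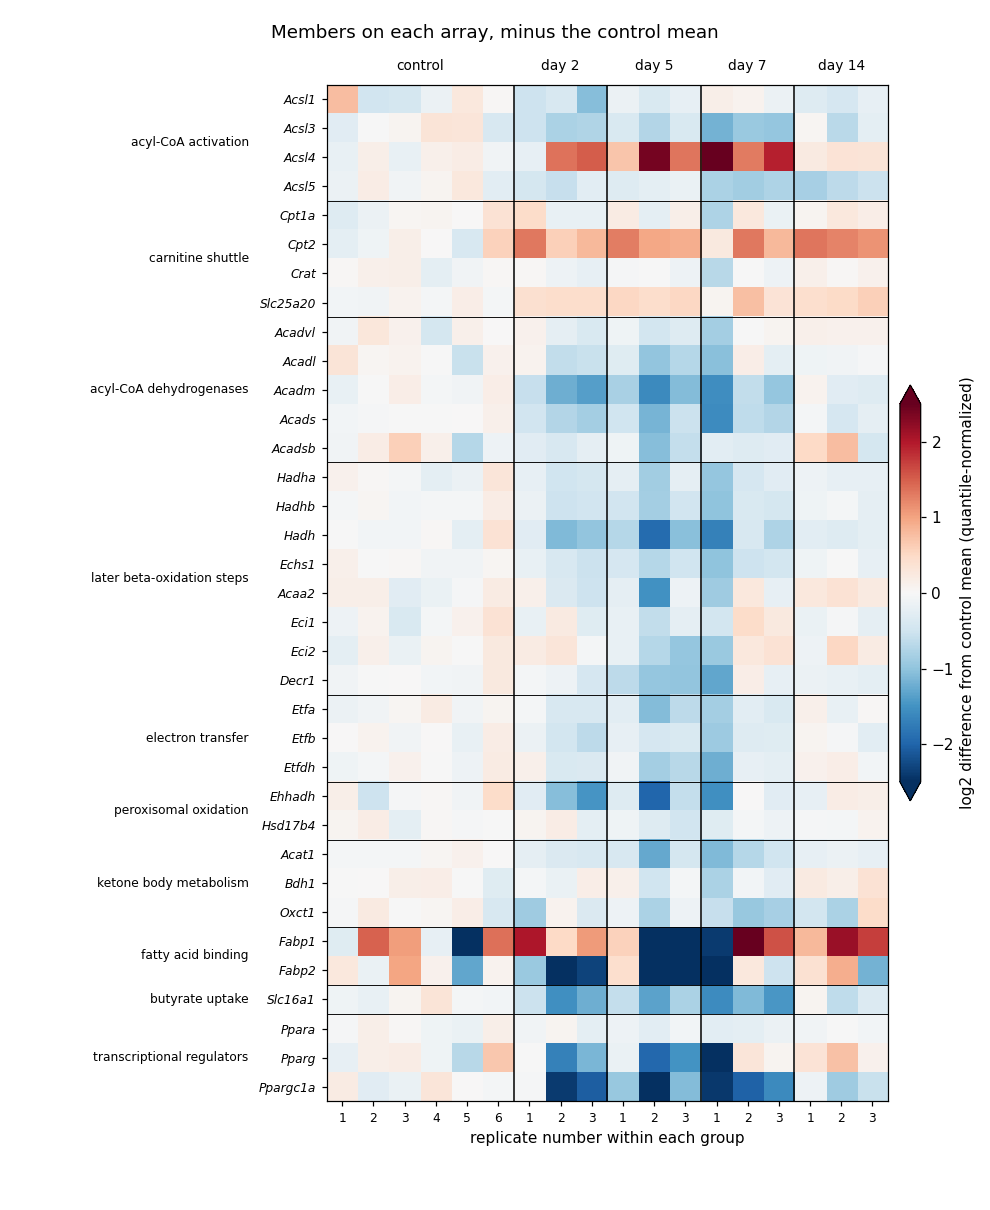
Each of the 35 members (rows, grouped by role) on each of the 18 arrays (columns, by group and replicate number), as the log2 difference from the mean of the 6 controls after quantile normalization. Blue is lower and red higher than control. Most rows of the oxidation enzymes are blue on days 2, 5 and 7, darkest on day 5 replicate 2 and day 7 replicate 1, and pale on day 14, while Cpt2 and Acsl4 are red.

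The arrays of days 5 and 7 were far from uniform. Day 7 replicate 1 held the lowest of all 18 values for 15 of the 35 members and day 5 replicate 2 for 10. The mean over the members, as a difference from control, was -0.94 on day 7 replicate 1 and -0.88 on day 5 replicate 2, against -0.081 and -0.23 on the other day 7 arrays and -0.15 and -0.58 on the other day 5 arrays. On day 2 it was -0.070, -0.45 and -0.47, on day 14 it was 0.056, 0.067 and -0.007, and the 6 controls ran from -0.20 to 0.14. Markers of the epithelium were also lowest on the same 2 arrays, as given further on.

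Promoters of the members that fell together are printed here, to show which of a few known regulatory letters lie upstream of them and which do not. RefSeq (GRCr8) places a start for 32 of the 35 members, and the 250 bases before each start were searched on both strands for 7 motifs. The sequences below run 5′ to 3′ along the named strand and end 1 base before the gene's start. Capitals mark TGACGTCA, the cyclic AMP response element, AGGTCA, the half-site read by nuclear receptors, and CACGTG, an E-box. The first 6 belong to the members that fell on days 2, 5 and 7, and those of Acads and Acsl3 hold none of the 3 marked motifs. The last holds the 300 bases between the starts of Hadhb and Hadha, which encode the 2 subunits of 1 enzyme and run in opposite directions; it is printed in the direction of Hadha, and both genes fell on day 7.
Acadm (chr2:245542865-245543114, minus strand): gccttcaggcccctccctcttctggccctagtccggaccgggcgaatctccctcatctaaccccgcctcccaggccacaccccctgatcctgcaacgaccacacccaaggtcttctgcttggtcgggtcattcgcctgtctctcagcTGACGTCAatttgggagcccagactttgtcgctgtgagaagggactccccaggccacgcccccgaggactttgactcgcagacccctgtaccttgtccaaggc
Ppargc1a (chr14:63634058-63634307, plus strand): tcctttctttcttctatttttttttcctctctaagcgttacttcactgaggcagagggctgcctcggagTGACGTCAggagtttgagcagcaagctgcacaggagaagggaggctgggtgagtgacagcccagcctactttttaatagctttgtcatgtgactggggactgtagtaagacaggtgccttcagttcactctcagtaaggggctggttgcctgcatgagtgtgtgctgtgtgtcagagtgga
Slc16a1 (chr2:194812410-194812659, plus strand): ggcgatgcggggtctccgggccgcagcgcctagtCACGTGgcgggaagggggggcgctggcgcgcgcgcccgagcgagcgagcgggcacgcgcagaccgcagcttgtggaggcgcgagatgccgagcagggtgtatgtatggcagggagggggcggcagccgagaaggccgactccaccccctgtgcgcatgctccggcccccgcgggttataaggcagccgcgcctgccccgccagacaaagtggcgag
Echs1 (chr1:204333507-204333756, minus strand): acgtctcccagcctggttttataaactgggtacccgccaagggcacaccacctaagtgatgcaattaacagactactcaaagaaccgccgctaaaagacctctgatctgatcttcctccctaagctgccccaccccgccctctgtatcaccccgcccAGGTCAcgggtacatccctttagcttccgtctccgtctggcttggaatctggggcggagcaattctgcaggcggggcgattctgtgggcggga
Acads (chr12:47154083-47154332, plus strand): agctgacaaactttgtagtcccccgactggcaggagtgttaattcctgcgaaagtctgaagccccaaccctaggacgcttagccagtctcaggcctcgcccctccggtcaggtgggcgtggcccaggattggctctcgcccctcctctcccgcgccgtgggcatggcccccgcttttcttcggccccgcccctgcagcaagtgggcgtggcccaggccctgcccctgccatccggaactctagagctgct
Acsl3 (chr9:87563351-87563600, plus strand): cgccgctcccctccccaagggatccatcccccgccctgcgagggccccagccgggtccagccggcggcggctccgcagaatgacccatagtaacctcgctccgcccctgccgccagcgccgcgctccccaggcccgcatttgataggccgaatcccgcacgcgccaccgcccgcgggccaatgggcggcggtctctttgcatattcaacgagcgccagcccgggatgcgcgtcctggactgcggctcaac
Hadhb-Hadha (chr6:31907501-31907800, plus strand): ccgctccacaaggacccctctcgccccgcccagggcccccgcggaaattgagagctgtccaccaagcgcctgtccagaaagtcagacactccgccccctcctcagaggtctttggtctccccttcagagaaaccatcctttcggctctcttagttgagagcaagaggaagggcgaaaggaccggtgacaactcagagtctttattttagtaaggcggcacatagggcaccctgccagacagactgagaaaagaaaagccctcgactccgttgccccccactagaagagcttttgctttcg

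TGACGTCA lay 103 to 96 bases before the start of Acadm and 181 to 174 bases before that of Ppargc1a. It was in no other member's window, and in 1.59% of all 33469 windows of that length. AGGTCA was found for 5 members, Acadvl, Echs1, Eci1, Fabp1 and Hsd17b4, and in 14.1% of all windows. CACGTG was found for Slc16a1 and in 5.59% of all windows. The GC box GGGCGG was in the windows of 23 members and in 30.5% of all windows, and CCAAT in those of 10 members and in 34.0%. The direct repeat of AGGTCA with 1 spacer base, AGGTCANAGGTCA, which contains the half-site, occurred in 0.0508% of all windows and in those of 0 members, and TCAAGGTCA, which also contains it, in 0.388% and 0 members. Members were counted as genes, out of 32, with a match in any window of the gene, and the background was counted as windows. The units are thus unlike, and no excess among the members can be read from them. All of these are matches of letters in a short window, and no binding was measured.

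**Figure D2:**
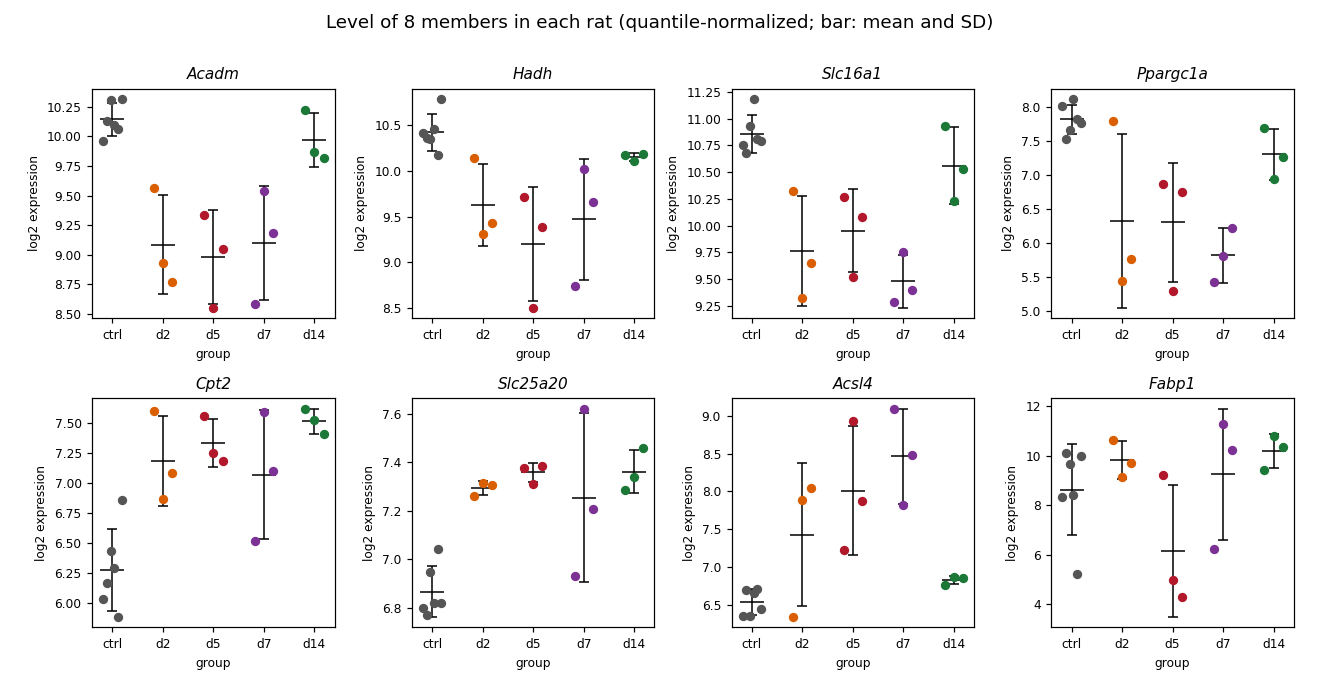
Quantile-normalized log2 level of 8 members in every rat, by group (ctrl: 6 controls; d2, d5, d7, d14: 3 rats each), with the group mean and SD as bars; each panel has its own scale. For Acadm, Hadh, Slc16a1 and Ppargc1a the rats of days 5 and 7 lie below all controls, Cpt2 and Slc25a20 lie mostly above them, Acsl4 peaks on days 5 and 7, and Fabp1 spreads widely within the groups.

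The step that feeds the pathway is run by the long-chain acyl-CoA synthetases, which couple fatty acids to coenzyme A. Acsl3 fell on days 2, 5 and 7, Acsl5 on days 2, 7 and 14 and Acsl1 on day 2, whereas Acsl4, the form with a preference for arachidonic acid, rose on days 5 and 7. In order of replicate number, and as the lowest, median and highest of the 6 controls, Acsl3 had log2 levels of 7.69, 8.11 and 8.42 in the controls, 7.58, 7.30 and 7.33 in the day 2 rats, 7.71, 7.36 and 7.72 in the day 5 rats, 6.91, 7.17 and 7.12 in the day 7 rats, and 8.14, 7.41 and 7.85 in the day 14 rats. Of the 9 rats of days 2, 5 and 7, 7 were below every control. Its differences from control were -0.69, -0.50, -1.02 and -0.29 on days 2, 5, 7 and 14 (SE 0.17; adjusted p 0.0127, 0.0456, 0.000522 and 0.322), but -0.091, 0.098, -0.39 and 0.37 as deposited, with a turned sign on days 5 and 14. Leaving out day 2 replicate 2 or 3 ended the day 2 call (adjusted p 0.0622 and 0.0614), and leaving out any of 12 arrays ended that of day 5, the highest being 0.214 without day 5 replicate 2.

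Levels of Acsl5, the form found mainly in intestine and on mitochondria, were 9.34, 9.60 and 9.88 in the controls, 9.18, 9.05 and 9.35 in the day 2 rats, 9.28, 9.36 and 9.46 in the day 5 rats, 8.83, 8.74 and 8.84 in the day 7 rats, and 8.78, 8.96 and 9.08 in the day 14 rats. All 3 rats of day 7 and of day 14 were below the lowest control. The differences were -0.42, -0.25, -0.81 and -0.68 (SE 0.11), with adjusted p 0.0165, 0.119, 0.000107 and 0.00119. As deposited they were -0.017, 0.16, -0.38 and -0.20, called on day 7 alone (adjusted p 0.00816). The day 2 call ended without day 2 replicate 2 (adjusted p 0.0978). A dimmer probe set of Acsl5 was called on none of the 4 days, and on day 14 it was at -0.075 (adjusted p 0.845). Acsl1, which ran from 6.89 to 8.15 in the controls, fell by 0.66 on day 2 with an adjusted p of 0.0478. The removal of any of 16 of the 18 arrays ended that call, and the difference became 0.053 as deposited. Its other probe sets were not called on day 2 (-0.065 and 0.115).

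Acsl4 is described in full because of its values, outside the rule by which genes were named. It stood at 6.35, 6.55 and 6.71 in the controls, 6.33, 7.89 and 8.05 in the day 2 rats, 7.23, 8.93 and 7.88 in the day 5 rats, 9.09, 7.83 and 8.48 in the day 7 rats, and 6.76, 6.87 and 6.85 in the day 14 rats. Each rat of days 5, 7 and 14 was above every control, as were 2 of the 3 rats of day 2, while day 2 replicate 1 was at the level of the lowest control. The differences were 0.89, 1.48, 1.93 and 0.29 (SE 0.37; adjusted p 0.103, 0.00777, 0.00116 and 0.662), and they were called higher on all 4 days as deposited. Without day 2 replicate 1 the day 2 difference was 1.44 with an adjusted p of 0.00712, and without day 5 replicate 2 the day 5 call ended (adjusted p 0.0712).

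In the carnitine shuttle, which moves long-chain acyl groups into mitochondria, Cpt2 and Slc25a20 rose on all 4 days, on both scales, and Cpt1a and Crat were called on none after quantile normalization. In the F test over the 4 TNBS days, neither Cpt2 nor Slc25a20 was called (adjusted p 0.624 and 0.768). Both set controls apart from every TNBS day, as the extraction label also does, so extraction and disease cannot be told apart here. Cpt2, which releases the acyl group inside the inner membrane, was at 5.88, 6.23 and 6.85 in the controls, 7.60, 6.87 and 7.08 in the day 2 rats, 7.56, 7.25 and 7.19 in the day 5 rats, 6.52, 7.59 and 7.10 in the day 7 rats, and 7.61, 7.52 and 7.41 in the day 14 rats. Of the 12 TNBS rats 11 were above every control, and day 7 replicate 1 was within their range. The differences were 0.90, 1.05, 0.79 and 1.24 (SE 0.23), with adjusted p 0.0114, 0.00304, 0.0159 and 0.00236. The call of day 2 ended without day 2 replicate 1 (adjusted p 0.0549), and that of day 7 without its replicate 2 or 3 (0.116 and 0.0543).

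Slc25a20, the carrier that exchanges acylcarnitine for carnitine across the inner membrane, was at 6.77, 6.82 and 7.04 in the controls, 7.26, 7.31 and 7.31 in the day 2 rats, 7.38, 7.31 and 7.39 in the day 5 rats, 6.93, 7.62 and 7.21 in the day 7 rats, and 7.29, 7.34 and 7.46 in the day 14 rats. Again 11 of 12 TNBS rats were above every control, with day 7 replicate 1 within their range. It differed from control by 0.43, 0.49, 0.39 and 0.50 (SE 0.11; adjusted p 0.0147, 0.0044, 0.0166 and 0.00909). Single arrays ended 3 of these calls, namely day 2 replicates 2 and 3 (0.0575 and 0.0587), day 7 replicate 2 (0.127) and day 14 replicate 3 (0.0538). Cpt1a, the outer-membrane enzyme that sets the pace of long-chain oxidation, was at 9.24, 9.59 and 9.92 in the controls, 10.02, 9.38 and 9.39 in the day 2 rats, 9.77, 9.33 and 9.72 in the day 5 rats, 8.79, 9.83 and 9.41 in the day 7 rats, and 9.64, 9.83 and 9.73 in the day 14 rats. Its groups overlapped throughout, with differences from -0.22 on day 7 to 0.17 on day 14 and adjusted p no lower than 0.445; as deposited it was 0.19 on day 7 and was called higher on day 14 (0.63). Crat, which trims short acyl groups, differed by -0.28 at most on the quantile-normalized scale, not called, and was called higher on all 4 days as deposited.

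The acyl-CoA dehydrogenases carry out the first step of each turn of the cycle and differ in the chain length they accept. After quantile normalization all 5 lay below control on days 2, 5 and 7, of which 2, 3 and 2 fell, and those for medium and short chains, Acadm and Acads, fell on each of these days. As deposited, 3, 2 and 3 of the 5 were above control on these days. Acadm was at 9.96, 10.11 and 10.32 in the controls, 9.56, 8.93 and 8.77 in the day 2 rats, 9.34, 8.56 and 9.05 in the day 5 rats, 8.59, 9.54 and 9.18 in the day 7 rats, and 10.23, 9.87 and 9.81 in the day 14 rats. Each of the 9 rats of days 2, 5 and 7 was below every control, and day 14 replicate 1 was back in the control range. Its differences were -1.06, -1.16, -1.04 and -0.18 (SE 0.21), with adjusted p 0.00278, 0.000927, 0.00171 and 0.646. As deposited it was still called lower on the first 3 days, at -0.68, -0.77 and -0.64, and no single array ended any of its quantile-normalized calls.

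Acads, the butyryl-CoA dehydrogenase, was at 9.03, 9.09 and 9.24 in the controls, 8.62, 8.37 and 8.26 in the day 2 rats, 8.61, 7.95 and 8.57 in the day 5 rats, 7.52, 8.46 and 8.38 in the day 7 rats, and 9.06, 8.69 and 8.88 in the day 14 rats. The same 9 rats were below every control, and only day 14 replicate 1 of the others was within their range. The differences were -0.69, -0.73, -0.98 and -0.23 (SE 0.18; adjusted p 0.0158, 0.00816, 0.000966 and 0.462), and as deposited they were -0.24, -0.27, -0.49 and 0.28, called on day 7 alone. Without day 2 replicate 2 or 3 (0.063 and 0.0853) or day 5 replicate 2 (0.0739), the call of that day ended. Acadl, for long chains, fell on day 5 alone, with a difference of -0.67 with an adjusted p just under 0.05, a call that any of 13 arrays ended. Acadvl, for very long chains, and the dim Acadsb, for branched short chains, were called on none of the 4 days and lay between -0.59 and 0.28; Acadvl was called higher on days 2 and 14 as deposited, and Acadsb on day 14.

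Among the 8 members of the later steps, 1 fell on day 2, 4 on day 5, 4 on day 7 and 0 on day 14. Echs1, the hydratase for short chains, fell on days 2, 5 and 7, with levels of 8.47, 8.57 and 8.70 in the controls, 8.37, 8.17 and 8.03 in the day 2 rats, 8.15, 7.84 and 8.07 in the day 5 rats, 7.56, 8.04 and 8.11 in the day 7 rats, and 8.47, 8.55 and 8.36 in the day 14 rats. All 9 rats of those days were below every control. The differences were -0.38, -0.54, -0.66 and -0.10 (SE 0.12; adjusted p 0.0328, 0.00297, 0.000639 and 0.623), yet 0.13, -0.010, -0.12 and 0.47 as deposited, so that the sign turned on days 2 and 14. The day 2 call ended without control replicate 1, 3 or 6 or without day 2 replicate 2 or 3, the highest adjusted p being 0.174.

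Hadha and Hadhb, the alpha and beta subunits of the mitochondrial trifunctional protein for long chains, shared their direction on each day after quantile normalization. Hadha was at 9.26, 9.49 and 9.80 in the controls, 9.29, 9.01 and 9.07 in the day 2 rats, 9.28, 8.63 and 9.29 in the day 5 rats, 8.54, 9.08 and 9.22 in the day 7 rats, and 9.37, 9.30 and 9.30 in the day 14 rats. It differed from control by -0.38, -0.44, -0.56 and -0.18 (SE 0.16) and fell on day 7 (adjusted p 0.0184). That call ended without day 7 replicate 1 (0.147), and the difference was -0.13 and not called as deposited. The dimmer probe sets of Hadha were not called on day 7 (0.068 and 0.046). Hadhb was at 10.49, 10.51 and 10.73 in the controls, 10.40, 10.04 and 10.08 in the day 2 rats, 10.08, 9.72 and 10.08 in the day 5 rats, 9.56, 10.18 and 10.12 in the day 7 rats, and 10.45, 10.50 and 10.33 in the day 14 rats, with all 9 rats of days 2, 5 and 7 below every control. It fell on days 5 and 7, with differences of -0.60 and -0.60 (SE 0.13; adjusted p 0.00327 and 0.00281), against -0.38 on day 2 (adjusted p 0.0508) and -0.13 on day 14. As deposited, on day 2, Hadha was at 0.032 and Hadhb at -0.029. On days 5 and 7 Hadhb was then at -0.25 and -0.26, not called.

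Hadh, the 3-hydroxyacyl-CoA dehydrogenase for shorter chains, is also given in full because of its values. Its levels were 10.18, 10.39 and 10.79 in the controls, 10.15, 9.32 and 9.43 in the day 2 rats, 9.72, 8.51 and 9.39 in the day 5 rats, 8.74, 10.02 and 9.66 in the day 7 rats, and 10.17, 10.11 and 10.19 in the day 14 rats. The 9 rats of days 2, 5 and 7 were all below the lowest control, and the 3 of day 14 were close to it. It fell on days 5 and 7, with differences of -1.22 and -0.95 (SE 0.27; adjusted p 0.00384 and 0.0155), the latter not without day 7 replicate 1 (0.133), and on day 2 it was -0.80 (adjusted p 0.0517). As deposited the day 5 difference was -0.86, still called. A dim second probe set of Hadh was not called on day 5 or day 7 (-0.27 and -0.043). Decr1, the reductase needed for unsaturated chains, fell on day 5, with a difference of -0.87 (adjusted p 0.00734). The remaining 3, the thiolase Acaa2 and the isomerases Eci1 and Eci2, were called on no day, with differences from -0.63 to 0.29; as deposited Eci1 was called higher on days 2, 7 and 14, Eci2 on those days too, and Acaa2 on day 14. A second, dimmer probe set of Acaa2 fell on all 4 days, by 0.98, 1.23, 1.05 and 0.77, so its probe sets disagreed.

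Electrons from the dehydrogenases pass to the flavoprotein made of Etfa and Etfb and then, through Etfdh, to the respiratory chain. Etfa was at 10.21, 10.34 and 10.57 in the controls, 10.31, 9.96 and 9.96 in the day 2 rats, 10.09, 9.28 and 9.70 in the day 5 rats, 9.51, 10.10 and 9.97 in the day 7 rats, and 10.49, 10.18 and 10.40 in the day 14 rats. It fell on days 5 and 7, with differences of -0.67 and -0.50 (SE 0.16; adjusted p 0.00616 and 0.0288), and these calls ended without day 5 replicate 2 (0.0577), and without day 7 replicate 1 (0.198) or control replicate 4 (0.057). Etfb was at 10.36, 10.56 and 10.74 in the controls, 10.41, 10.09 and 9.90 in the day 2 rats, 10.34, 10.13 and 10.18 in the day 5 rats, 9.65, 10.22 and 10.25 in the day 7 rats, and 10.61, 10.53 and 10.29 in the day 14 rats, and 8 of the 9 rats of days 2, 5 and 7 were below every control. It fell on days 2 and 7, with differences of -0.42 and -0.51 (SE 0.14; adjusted p 0.0435 and 0.0115); 9 arrays could end the first call and day 7 replicate 1 the second (0.102). Etfdh was called on no day and was at -0.55 and -0.55 on days 5 and 7 (adjusted p 0.0619 and 0.0576), but at 0.15 on both as deposited. As deposited none of the 3 was called lower on any day, and Etfa and Etfdh were called higher on day 14.

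Peroxisomes shorten very long chains with the bifunctional enzymes Ehhadh and Hsd17b4, and neither was called on any day after quantile normalization. Ehhadh was at 5.37, 5.89 and 6.35 in the controls, 5.60, 4.82 and 4.42 in the day 2 rats, 5.56, 3.90 and 5.28 in the day 5 rats, 4.36, 5.89 and 5.61 in the day 7 rats, and 5.68, 6.08 and 6.03 in the day 14 rats, with 5 of the 9 rats of days 2, 5 and 7 below every control. Its differences were -0.94, -0.97, -0.60 and 0.045 (SE 0.37; adjusted p 0.087, 0.0619, 0.247 and 0.956), with a positive sign as deposited on day 7 (0.23). Hsd17b4 was at 7.90, 8.15 and 8.33 in the controls, 8.20, 8.32 and 7.90 in the day 2 rats, 8.02, 7.82 and 7.66 in the day 5 rats, 7.83, 8.09 and 8.0 in the day 7 rats, and 8.11, 8.08 and 8.23 in the day 14 rats, and overlapped the controls on every day. Its lowest difference was -0.30 on day 5 (adjusted p 0.0513), where it was 0.28 and called higher as deposited.

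Ketone bodies are made from and returned to acetyl units by Acat1, Bdh1 and Oxct1. Acat1, the mitochondrial acetoacetyl-CoA thiolase, was at 9.65, 9.69 and 9.82 in the controls, 9.48, 9.34 and 9.31 in the day 2 rats, 9.30, 8.43 and 9.27 in the day 5 rats, 8.60, 8.99 and 9.21 in the day 7 rats, and 9.51, 9.56 and 9.51 in the day 14 rats. All 12 TNBS rats were below every control. It fell on days 5 and 7, with differences of -0.71 and -0.77 (SE 0.16; adjusted p 0.00407 and 0.00194), against -0.33 on day 2 (adjusted p 0.161) and -0.18 on day 14; as deposited the day 5 and 7 values were -0.30 and -0.37, not called, and days 2 and 14 turned positive. A second probe set of Acat1 fell on days 2, 5 and 7, by 0.49, 0.60 and 0.81.

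Oxct1, which starts the use of ketone bodies as fuel, was at 8.92, 9.34 and 9.56 in the controls, 8.44, 9.41 and 8.96 in the day 2 rats, 9.20, 8.53 and 9.19 in the day 5 rats, 8.75, 8.38 and 8.50 in the day 7 rats, and 8.86, 8.54 and 9.78 in the day 14 rats. It fell on day 7, with a difference of -0.78 (SE 0.25; adjusted p 0.0292), a call that ended without control replicate 2 or 5 or day 7 replicate 2 or 3 (0.103 at most) and that was -0.32, not called, as deposited. Bdh1, which interconverts acetoacetate and 3-hydroxybutyrate, was at 7.15, 7.45 and 7.62 in the controls, 7.39, 7.29 and 7.61 in the day 2 rats, 7.57, 6.94 and 7.40 in the day 5 rats, 6.66, 7.37 and 7.16 in the day 7 rats, and 7.67, 7.60 and 7.80 in the day 14 rats. It was called on no day, with -0.38 on day 7 (SE 0.16; adjusted p 0.0779), while as deposited it was 0.33 there and was called higher on days 2, 5 and 14.

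Slc16a1, which carries butyrate, lactate and ketone bodies across the cell membrane, was at 10.68, 10.80 and 11.18 in the controls, 10.33, 9.32 and 9.65 in the day 2 rats, 10.27, 9.52 and 10.08 in the day 5 rats, 9.28, 9.75 and 9.40 in the day 7 rats, and 10.94, 10.23 and 10.53 in the day 14 rats. All 9 rats of days 2, 5 and 7 were below every control, and day 14 replicate 1 was back among them. The differences were -1.10, -0.91, -1.38 and -0.30 (SE 0.21), with adjusted p 0.00248, 0.00552, 0.000242 and 0.408. It was still called lower as deposited on the first 3 days, at -0.78, -0.59 and -1.05. Only the day 5 call ended without 1 array, day 5 replicate 2 (0.0506), and a dim second probe set of the gene was called on none of days 2, 5 and 7.

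The cytosolic fatty acid binding proteins of enterocytes varied too widely within groups to be called. Fabp1, the liver and gut form, was at 5.24, 9.06 and 10.11 in the controls, 10.65, 9.13 and 9.70 in the day 2 rats, 9.22, 4.96 and 4.29 in the day 5 rats, 6.24, 11.28 and 10.23 in the day 7 rats, and 9.44, 10.79 and 10.37 in the day 14 rats. Day 5 replicates 2 and 3 were below every control and day 7 replicate 1 was near the lowest, while the day 14 rats were in the upper part of the control range or above it. Its differences were 1.19, -2.48, 0.61 and 1.57 with an SE of 1.22, and the smallest adjusted p was 0.15. Fabp2, the intestinal form, was at 7.54, 8.94 and 9.82 in the controls, 7.90, 6.04 and 6.51 in the day 2 rats, 9.26, 6.32 and 5.30 in the day 5 rats, 6.30, 9.10 and 8.33 in the day 7 rats, and 9.21, 9.74 and 7.66 in the day 14 rats. It differed by -2.02, -1.88, -0.93 and 0.034 (SE 0.79), with 0.0856 as its smallest adjusted p.

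Of the 3 transcriptional regulators, Ppargc1a fell on days 2, 5 and 7 and the receptors Ppara and Pparg were not called on any day. Ppargc1a, a coactivator that drives mitochondrial and oxidative genes, was at 7.54, 7.80 and 8.12 in the controls, 7.80, 5.43 and 5.76 in the day 2 rats, 6.87, 5.29 and 6.75 in the day 5 rats, 5.42, 5.80 and 6.22 in the day 7 rats, and 7.70, 6.94 and 7.27 in the day 14 rats. Of the 9 rats of days 2, 5 and 7, 8 were below every control, and day 2 replicate 1 was at the control median. Its differences were -1.49, -1.52, -2.01 and -0.52 (SE 0.43; adjusted p 0.0232, 0.0152, 0.00245 and 0.479), the most negative of any member on day 7. As deposited they were -0.81, -0.82, -1.29 and 0.21, called on day 7 alone. The calls of days 2 and 5 ended without day 2 replicate 2 or 3 (0.156 and 0.132) and without day 5 replicate 2 (0.125), whereas without day 2 replicate 1 the day 2 difference was -2.23. Both further probe sets of Ppargc1a fell on day 7, by 1.15 and 0.92, but neither was called on day 2 (-0.68 and -0.36) or day 5 (-0.92 and -0.51).

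Pparg, the receptor expressed in colonic epithelium and in fat cells, was at 7.02, 7.73 and 8.38 in the controls, 7.69, 6.03 and 6.56 in the day 2 rats, 7.55, 5.75 and 6.21 in the day 5 rats, 5.11, 8.01 and 7.77 in the day 7 rats, and 8.05, 8.45 and 7.82 in the day 14 rats. Its differences of -0.95, -1.21, -0.74 and 0.39 (SE 0.55) had adjusted p of 0.251, 0.121, 0.347 and 0.702. Day 7 replicate 1 was the lowest rat and the other day 7 rats were within the control range. Ppara, the receptor known for hepatic fatty acid oxidation, was dim at 3.44, 3.61 and 3.76 in the controls, 3.52, 3.68 and 3.37 in the day 2 rats, 3.48, 3.35 and 3.55 in the day 5 rats, 3.35, 3.38 and 3.48 in the day 7 rats, and 3.53, 3.61 and 3.55 in the day 14 rats. It differed by -0.21 at most (SE 0.087; adjusted p 0.0804 on day 7), and was positive and called higher on all 4 days as deposited, where it was 0.29 on day 7.

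**Figure D3:**
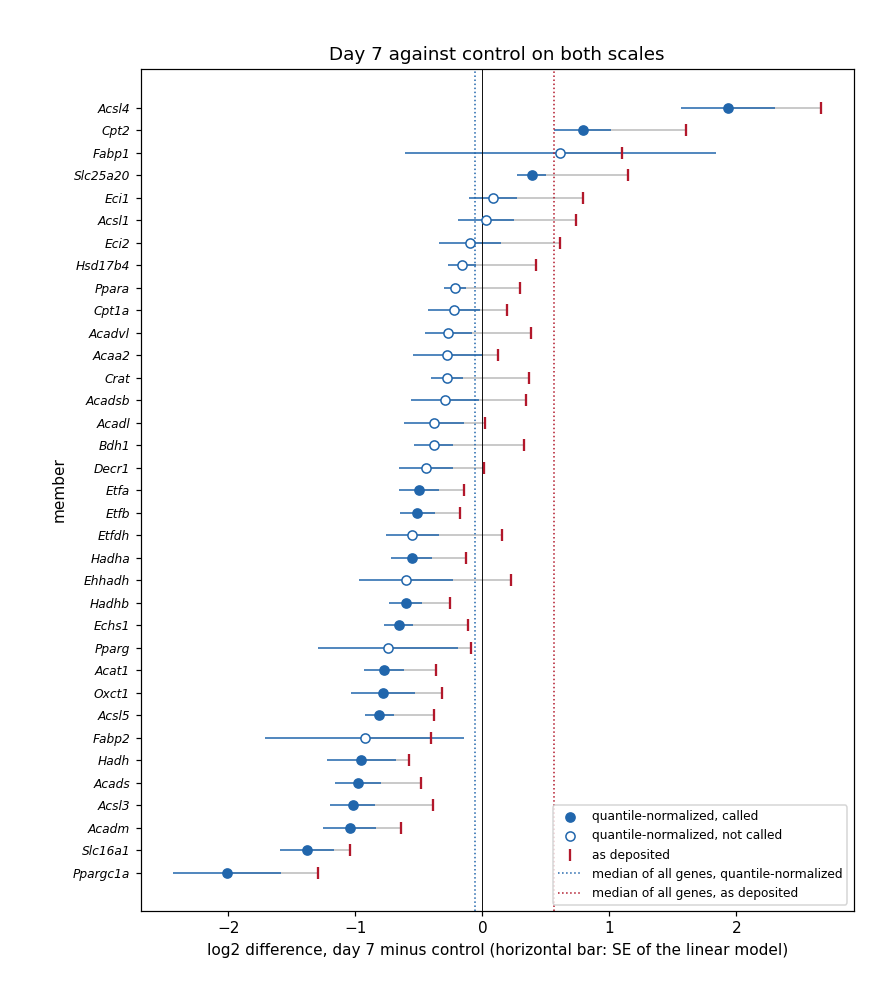
Log2 difference between day 7 (3 rats) and control (6 rats) for the 35 members, after quantile normalization (circles with SE; filled where limma's adjusted p is under 0.05) and as deposited (red ticks), with the median of all genes on each scale as dotted lines. The 14 filled circles left of 0 are the members that fell. Their red ticks also lie left of 0 and of the deposited median of 0.56, which is not matched to the members in brightness.

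Recovery was compared between the TNBS days themselves, where the shift of the controls plays no part. Between days 7 and 14, 32 of the 35 members moved upward, with a median of 0.54 over the members and of 0.063 over all genes. Slc16a1 and Echs1 rose and Acsl4 fell, whereas 2.08% of all genes were called higher and 4.28% lower. The deposited levels of Slc16a1 were 9.44, 9.82 and 9.56 on day 7 and 11.09, 10.35 and 10.66 on day 14, a difference of 1.09 (SE 0.26; adjusted p 0.025). Echs1 went from 7.80, 8.15 and 8.35 to 8.76, 8.74 and 8.55, by 0.58 (SE 0.15; adjusted p 0.037), and Acsl4 from 9.27, 7.95 and 8.71 to 7.15, 7.17 and 7.11, by -1.50 (SE 0.39; adjusted p 0.039). The rats of the 2 days did not overlap for these 3 genes, nor for 18 other members, 17 of them higher on day 14 and Acsl1 lower. Non-overlap was not counted over all genes, so no share of all genes stands beside these counts.

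These 3 calls were fragile. Without day 7 replicate 1 the adjusted p was 0.114 for Slc16a1, 0.197 for Echs1 and 0.198 for Acsl4. The call of Slc16a1 also ended without day 7 replicate 3 or day 14 replicate 1 or 3. That of Echs1 also ended without day 7 replicate 2 or any day 14 rat. That of Acsl4 ended without any of 9 arrays in all, among them control replicates 4, 5 and 6. Among members not called, Bdh1 (0.66, adjusted p 0.0526), Acadm (0.88, 0.0562), Acads (0.76, 0.0587) and Acsl3 (0.76, 0.0625) came nearest. At an unadjusted p under 0.05 there were 15 of the 35 members, 14 of them with a positive difference, and 24.4% of all genes.

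**Figure D4:**
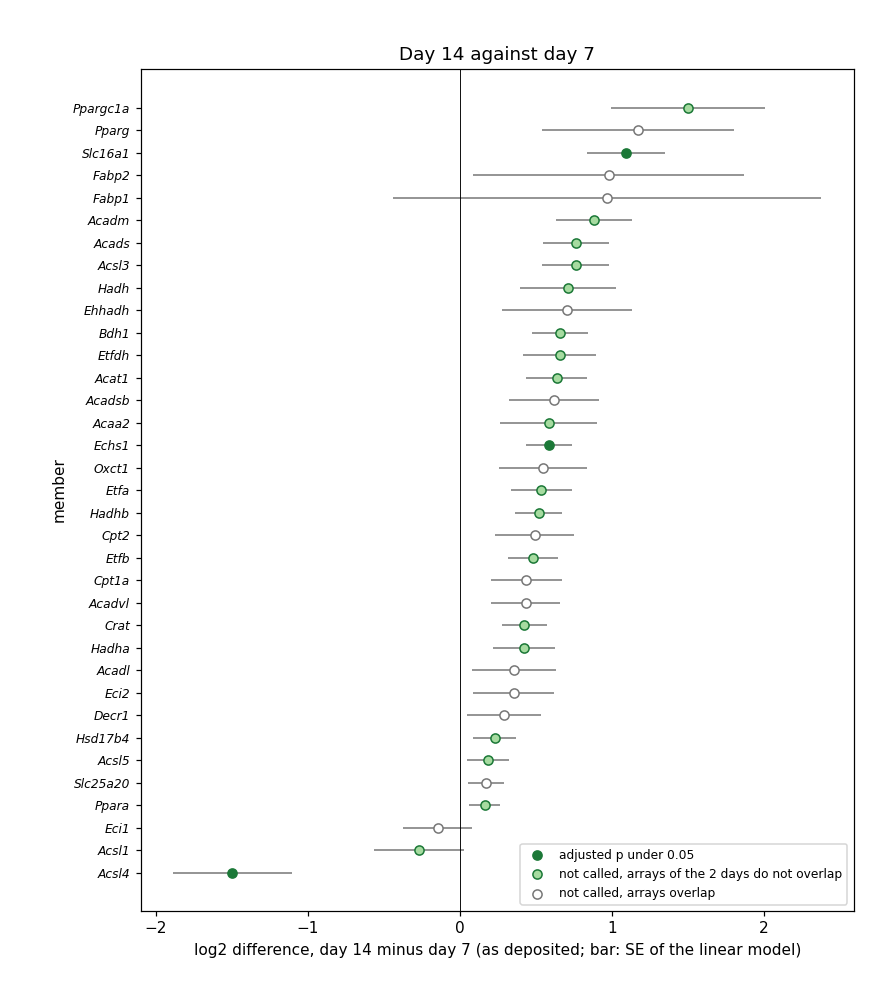
Log2 difference of day 14 minus day 7 for the 35 members on the deposited scale (3 rats each; bars are the SE of the linear model), ordered by size. Dark green marks limma's adjusted p under 0.05, light green the members whose rats do not overlap without a call, and white the rest. Only Acsl4, Acsl1 and Eci1 lie left of 0.

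Against day 5, 33 of 35 members were higher on day 14, with a median of 0.51, but 0 passed the test by limma, while 1.35% of all genes did. At an unadjusted p under 0.05 there were 22 members and 19.8% of all genes, and Acadm came nearest (1.01, SE 0.25; adjusted p 0.067). Against day 2, 33 of 35 members were higher on day 14, 0 passed by limma against 0.0422% of all genes, and 8 had an unadjusted p under 0.05, as had 10.9% of all genes. The smallest adjusted p was 0.364, for Acadm, and leaving out day 2 replicate 1 gave 3 members called higher, in a fit where all genes were not counted. The shares of all genes that lay higher on day 14 than on days 2 and 5 are not given here. Days 2 and 5 did not separate the members either, with 0 called by limma, 3 at an unadjusted p under 0.05, where 10.8% of all genes were, and 0.0141% of all genes called by the adjusted p. In the F test over the 4 TNBS days, 0 of 35 members passed by limma and 17 had an unadjusted p under 0.05, while of all genes 3.45% passed and 21.2% had an unadjusted p under 0.05.

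Beside the module, 60 of 67 further genes of fatty acid, ketone body and butyrate handling were measured, on a list drawn up with earlier results of these data known. Of these 60, 9 rose and 6 fell on day 2, 9 rose and 11 fell on day 5, 10 rose and 14 fell on day 7, and 4 rose and 2 fell on day 14, with medians of -0.065, -0.16, -0.19 and -0.015. The shares that rose, 15%, 15%, 16.7% and 6.67%, and that fell, 10%, 18.3%, 23.3% and 3.33%, stood beside 11.4%, 14.7%, 14.7% and 6.4% and beside 10.7%, 16.5%, 18.7% and 6.37% of all genes. As deposited, 38, 37, 33 and 43 of the 60 were called higher and 1, 2, 3 and 0 lower, with medians of 0.57, 0.50, 0.46 and 0.63. Of all genes, 79.2%, 76.7%, 75.6% and 84.1% were called higher on that scale, shares not matched in brightness. The genes that rose included lipid storage and lipase control. Plin2, the coat protein of lipid droplets, was at 8.06, 8.34 and 8.69 in the controls, 8.77, 10.40 and 9.75 in the day 2 rats, 10.24, 11.63 and 10.58 in the day 5 rats, 11.55, 10.83 and 10.83 in the day 7 rats, and 9.0, 8.60 and 8.37 in the day 14 rats. It differed by 1.31, 2.48, 2.74 and 0.33 (SE 0.32; adjusted p 0.0105, 7.68e-05, 2.6e-05 and 0.569). All 9 rats of days 2, 5 and 7 were above every control.

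Angptl4, a secreted inhibitor of lipoprotein lipase, was at 4.55, 4.94 and 5.49 in the controls, 5.95, 8.62 and 7.78 in the day 2 rats, 5.97, 9.51 and 7.59 in the day 5 rats, 8.77, 8.62 and 8.64 in the day 7 rats, and 4.42, 5.1 and 4.92 in the day 14 rats. It rose by 2.50, 2.74 and 3.73 on days 2, 5 and 7 (SE 0.59; adjusted p 0.00816, 0.00308 and 0.00028). Slc16a3, the monocarboxylate carrier known for lactate export, was at 7.0, 7.36 and 7.54 in the controls, 7.01, 8.24 and 7.97 in the day 2 rats, 8.30, 9.46 and 8.86 in the day 5 rats, 10.06, 8.62 and 8.98 in the day 7 rats, and 7.04, 7.13 and 7.0 in the day 14 rats. Each rat of days 5 and 7 was above every control. It rose on days 5 and 7 by 1.55 and 1.90 (SE 0.30; adjusted p 0.00165 and 0.00032), on days when Slc16a1 fell. From day 7 to day 14, Plin2, Angptl4 and Slc16a3 fell by 2.3, 3.79 and 2.0 (adjusted p 0.00228, 0.00357 and 0.00331). From day 5 to day 14 they also fell, with adjusted p of 0.0173, 0.0459 and 0.0289.

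Acot3, an acyl-CoA thioesterase, and Pecr, a peroxisomal enoyl-CoA reductase, rose on all 4 days. Acot3 was at 3.69, 4.04 and 4.18 in the controls, 5.29, 4.91 and 4.83 in the day 2 rats, 4.88, 4.85 and 4.69 in the day 5 rats, 4.78, 5.41 and 5.04 in the day 7 rats, and 5.32, 5.19 and 5.1 in the day 14 rats. It was higher by 1.01, 0.81, 1.07 and 1.20 (SE 0.14). Pecr was at 6.18, 6.36 and 6.66 in the controls, 7.92, 7.58 and 7.24 in the day 2 rats, 7.33, 7.05 and 6.79 in the day 5 rats, 6.73, 7.87 and 7.56 in the day 7 rats, and 7.60, 8.10 and 7.74 in the day 14 rats. It was higher by 1.21, 0.68, 1.01 and 1.44 (SE 0.21). Every TNBS rat was above every control for both genes. Hibadh, an enzyme of valine breakdown, was at 9.93, 10.06 and 10.19 in the controls, 9.65, 9.63 and 9.37 in the day 2 rats, 9.35, 8.78 and 9.34 in the day 5 rats, 8.74, 9.33 and 9.19 in the day 7 rats, and 9.80, 9.73 and 9.73 in the day 14 rats. It fell on days 2, 5 and 7 by 0.51, 0.90 and 0.97 (SE 0.13); it rose again from day 7 to day 14, by 0.70 (adjusted p 0.0272). Ucp2, an uncoupling protein of the inner mitochondrial membrane, was at 9.21, 9.39 and 10.12 in the controls, 8.03, 8.21 and 9.12 in the day 2 rats, 8.58, 8.58 and 8.75 in the day 5 rats, 8.08, 8.65 and 8.64 in the day 7 rats, and 8.62, 8.64 and 8.99 in the day 14 rats. Every TNBS rat was below every control. It fell on all 4 days, by 1.09 on day 2 and 0.79 on day 14, and was negative on each as deposited. Cpt1b, the muscle form of carnitine palmitoyltransferase, was at 4.57, 4.80 and 5.03 in the controls, 4.37, 4.46 and 4.40 in the day 2 rats, 4.48, 4.23 and 4.55 in the day 5 rats, 4.25, 4.14 and 4.19 in the day 7 rats, and 4.33, 4.47 and 4.81 in the day 14 rats. Of the 12 TNBS rats, 11 were below every control. It fell by 0.41, 0.40 and 0.63 on days 2, 5 and 7 after quantile normalization, but was positive as deposited (0.35, 0.35 and 0.099) and called higher on days 2, 5 and 14. Acad8, also known from branched-chain amino acid breakdown, was at 5.76, 6.01 and 6.2 in the controls, 5.59, 5.41 and 5.64 in the day 2 rats, 5.31, 5.48 and 5.61 in the day 5 rats, 5.33, 5.60 and 5.60 in the day 7 rats, and 5.66, 5.48 and 5.67 in the day 14 rats. It likewise fell on all 4 days after quantile normalization and was called higher on all 4 as deposited.

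Genes that share the mitochondrion or the tissue with the module were counted on the same days. Among all genes, 10.7%, 16.5%, 18.7% and 6.37% fell and 11.4%, 14.7%, 14.7% and 6.4% rose on days 2, 5, 7 and 14. Of 30 genes of the citric acid cycle and respiratory chain, 3, 9, 16 and 0 fell and 2, 2, 1 and 3 rose on days 2, 5, 7 and 14, with medians of -0.029, -0.26, -0.40 and 0.089, and 12 of 30 rose from day 7 to day 14. Ndufs1, a subunit of respiratory complex I, fell on days 2, 5 and 7, by 0.94 on day 7. The share of these 30 that fell on day 2 was near that of all genes. Of 18 epithelial markers, 1, 0, 6 and 0 fell and 2 rose on day 5, with medians of -0.20, -0.15, -0.37 and 0.23. The share of the 18 that fell was below that of all genes on days 2, 5 and 14. Krt20, a keratin of surface epithelium, fell by 0.98 on day 7, while Ceacam1 had a mean of 8.91 on day 5 against 6.70 in the controls. The mean of the 18 was -0.54 on day 5 replicate 2 and -0.82 on day 7 replicate 1, the 2 arrays on which most members were lowest, against -0.39 to 0.31 on the other 7 arrays of days 2, 5 and 7. As deposited, 79.2%, 76.7%, 75.6% and 84.1% of all genes were called higher on the 4 days, shares not matched to these lists in brightness. On that scale, 0, 1, 4 and 0 of the 30 mitochondrial genes were called lower and 15, 7, 4 and 25 higher. Of the 18 epithelial markers, 0, 0, 3 and 0 were then called lower and 7, 4, 0 and 11 higher. Their part in the falls of the members was not tested.

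Macrophage and neutrophil markers moved the opposite way to the members that fell. Of 12, 8, 10, 12 and 2 rose on days 2, 5, 7 and 14, and the neutrophil protein S100a9 was higher by 6.26, 7.37, 7.59 and 2.78. Their mean difference from control was 1.10, 2.74 and 2.72 in the day 2 rats, 2.78, 3.60 and 2.61 in the day 5 rats, 3.74, 3.22 and 3.42 in the day 7 rats, and 0.86, 1.35 and 0.46 in the day 14 rats. The day 2 array with the lowest mean was replicate 1, on which Acsl4 was at control level and Ppargc1a at the control median. Smooth muscle markers fell in 4, 5, 3 and 3 of 11 on the 4 days, with medians of -0.47, -0.85, -0.39 and -0.44, and Csrp1, a protein of smooth muscle, fell on all 4. Of 7 fat cell markers 1 rose, Fabp4, which the list of 60 also holds, on day 7 (1.65, adjusted p 0.0365), and 0 fell by limma, where 0, 0, 2 and 1 of them had an unadjusted p under 0.05. The part of these cell types in the members' values was not tested.

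**Figure D5:**
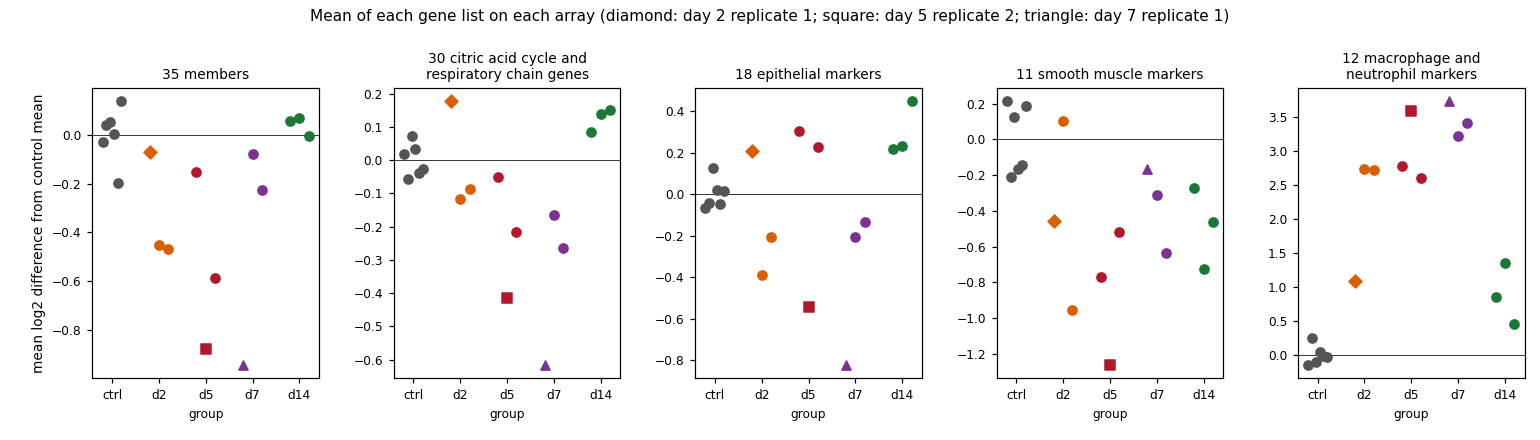
Mean log2 difference from control, after quantile normalization, of the 35 members and of 4 comparison lists on each array (ctrl: 6 controls; d2 to d14: 3 TNBS rats each); each panel has its own scale. Diamond, square and triangle mark day 2 replicate 1, day 5 replicate 2 and day 7 replicate 1. The square and the triangle are the lowest points for the members, the citric acid cycle and respiratory chain genes and the epithelial markers, and the diamond is the lowest day 2 point for the macrophage and neutrophil markers.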

How the data were processed

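RNA from full-thickness colon of 18 rats (6 controls and 3 TNBS rats on each of 4 days) was hybridized to Affymetrix rat genome arrays, 1 per rat, and normalized by the authors with the affyPLM package, per the labels. The deposited values are on a log scale and were used as log2 values; the sources used here give neither the base nor the affyPLM method. Arrays carry no read depth, and their number limits the precision. Groups came from the sample titles.

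After leaving out 57 array controls, 31042 probe sets were fitted with limma 3.58.1 in R 4.3.3 (lmFit and eBayes, 1 coefficient per group, all 18 arrays, two-sided, Benjamini-Hochberg over all probe sets, calls under 0.05). Differences from control used values quantile-normalized across the arrays, and differences between TNBS days the deposited values. The GEO platform annotation gave 20826 probe sets a single symbol, 436 several and 9780 none. The fit was tested on simulated data first. Promoters came from RefSeq.

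The members, the gene lists and the tests were chosen with earlier results of these data known. Levels in every rat are given for a set panel of members and for up to 2 per role with the smallest F-test p over the 4 differences from control, and of the further pathway genes for Cpt1b and the 8 with the smallest such p. Alternatives were the deposited and the median-centred values, a filter on dim probe sets, a trended robust prior, array weights, a replicate block, the mean of a gene's probe sets, leaving out each array and fitting only the groups compared. The count called on both scales was added after seeing the data.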

Additional observations from a re-analysis of the deposited data

Results flagged for a closer look

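Among the 35 members, each tested for 1 control rat that stands far from the other 5 (Dixon's test), 3 had such a rat, and chance alone marks about 5% of groups. Control replicate 5 had the lowest level of Acadl, the long-chain dehydrogenase, at 9.32, with the next control at 9.88. The same rat had the lowest Fabp1 of the controls, at 5.24, with the next at 8.34, which makes Fabp1 the member with the widest control range. Control replicate 6 had the highest Decr1, at 9.51, with the next at 9.28. Between days 7 and 14 of the TNBS groups, 3 members differed by limma's test of the difference itself, Slc16a1 by 1.09, Echs1 by 0.58 and Acsl4 by -1.50, as described above.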

How the results depend on the processing

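The scale moved most counts. As deposited, 10, 7, 9 and 17 members were called higher than control and 2, 3, 5 and 0 lower on days 2, 5, 7 and 14. The added count of members called lower on both scales was likewise 2, 3, 5 and 0. Centred on each array's median, 19, 23, 22 and 6 were lower. Array medians differed by 0.76 between TNBS and control arrays, against a median offset of 0.54 for the members. Centring thus lowers the median member further than quantile normalization does, and shares of all genes on that scale are not given here. As deposited, a sign turned with a call on one of the scales: on day 2 for Acsl1 (0.053), Crat (0.51), Acadvl (0.46), Echs1 (0.13), Eci1 (0.60), Bdh1 (0.65) and Ppara (0.45), on day 5 for Acsl3 (0.098), Crat (0.57), Hsd17b4 (0.28), Bdh1 (0.55) and Ppara (0.37), on day 7 for Crat (0.36), Eci2 (0.61), Hsd17b4 (0.42) and Ppara (0.29), and on day 14 for Echs1 (0.47), Eci1 (0.65), Etfa (0.39) and Ppara (0.46). With array weights, 3 members passed the F test over the TNBS days, 7 were higher on day 14 than on day 7 and 1 than on day 5; without the dimmest 50% of the probe sets these last counts were 6 and 1. The mean of a gene's probe sets left 0 lower on day 14, and the fit of only the groups compared left 0 lower on day 14 than on day 7. Replicate numbers were not taken to pair the rats. Of 30 same-number pairs, 13 had a correlation of deviations above 0.1 (range -0.33 to 0.47). Different-number pairs were not compared, so pairing stays undecided. With the replicate block, 1 member was higher on day 2, and 4, 6 and 9 were lower on days 2, 5 and 7. In that fit 0 were lower on day 14 than on day 7. With array weights, the filter, the probe-set means, only the groups compared or the block, all genes were not counted.

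Leaving out 1 array at a time gave 1 to 2, 2 to 3, 1 to 3 and 1 to 2 members higher than control on days 2, 5, 7 and 14, and 2 to 12, 6 to 19, 10 to 17 and 1 to 1 lower. For day 14 it gave 0 to 3 higher than day 2, 0 to 3 higher than day 5, 0 to 8 higher and 0 to 1 lower than day 7, and 0 to 3 members in the F test. Calls over all genes were not counted in these fits either. Precision is limited by 3 rats a day and by signal, with 33 of 35 members above the median brightness and Acadsb and Ppara below it.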
